A study of Mus with 6 samples.

Results

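Retrocopied ribosomal protein genes made up a small but widely scattered set of RNA-seq signals in 6 mouse brain libraries, 3 labelled CNTNAP4-KO (KO) and 3 labelled wild type (WT). The set holds the genes that the deposited table calls processed pseudogenes, whose names begin with Rpl or Rps and carry a -ps suffix, and whose mean over the 6 libraries was at least 0.5 FPKM (fragments per kilobase, corrected for sequencing depth). Copies under other names were not searched for, and this rule kept 65 of the 283 processed pseudogenes so named, in a table of 54532 genes. The members were therefore chosen by their measured mean level, and their levels are given as a description; the rule did not use the difference between the groups. Of the 218 that fell below the limit, 124 had no read in any library.

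A processed pseudogene arises when a messenger RNA is copied back into DNA and inserted elsewhere in the genome, usually without introns or its own promoter. Ribosomal protein genes, which encode the proteins of the large (Rpl) and small (Rps) ribosomal subunits, are expressed at high levels in nearly all cells and have left many such copies in mammalian genomes. A young copy can be nearly identical to its functional parent gene, so a short read may match the parent and several copies.

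All 6 samples are labelled male and basolateral amygdala, a part of the brain known for its role in fear and emotional memory. The comparison addresses gene expression there when Cntnap4, which encodes a neurexin-related cell adhesion protein of neurons, is knocked out. The labels give no age, strain, allele or treatment for these animals, and they tell replicates apart by number alone, so each p-value rests on the spread among samples that may share a source. The series title also names Lactobacillus reuteri, a bacterium; samples given it were not analysed here. Reads in genes numbered 17647556 to 20813211 per library. Cntnap4 measured 1.61, 1.00 and 1.48 FPKM in KO replicates 1 to 3, against 2.03, 3.59 and 4.91 FPKM in WT replicates 1 to 3.

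Some libraries stood apart or went against their labels. KO replicate 1 held 43.0 FPKM of Xist, the RNA that coats the inactive X chromosome of females, and 0 reads of 4 Y-linked genes, against 2831 to 4001 such reads in each other library, which goes against its male label. KO replicate 2 had 2.36 FPKM summed over 3 hypothalamic markers, against 340 to 1065 FPKM in the other KO libraries and 485 to 952 FPKM in WT libraries. The 5 markers of basolateral amygdala projection neurons were all detected and summed to 32.7, 124 and 29.7 FPKM in KO libraries, against 10.99, 10.3 and 11.4 FPKM in WT libraries; for each of the 5, the KO and WT values did not overlap. Markers of striatum and central amygdala summed to 832 to 1087 FPKM in KO libraries and 580 to 762 FPKM in WT libraries, with 3 of 4 higher in every KO library. Oligodendrocyte markers summed to 559 to 848 FPKM in KO libraries and 913 to 1243 FPKM in WT libraries, with 2 of 3 lower in every KO library. None of these markers was at 0 in any library. The part of cell composition in the values given for the pseudogenes was not tested, and in bulk tissue fewer cells of a type and less RNA per cell cannot be told apart.

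The 65 pseudogenes derived from 38 parent genes, and 20 of these parents had a single copy in the set. There were 40 copies of large subunit genes and 25 copies of small subunit genes, spread over 19 chromosomes, with 7 on the X chromosome and 6 on chromosome 8. Their lengths in the table ran from 151 to 1210 bases, with a median of 467 bases. A protein-coding gene enclosed 25 of them (GRCm38 coordinates of the table), 11 on the strand of the enclosing gene and 15 on the opposite strand, counting Rps12-ps9 under each because it lies inside 2 genes. A further 5 lay inside non-coding RNA genes alone and 35 lay inside no other gene. RefSeq (GRCm38.p6) held 64 of the symbols, all at an overlapping position, and classed 57 as pseudogenes, 6 as transcribed pseudogenes and 1, Rpl34-ps1, as protein-coding.

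Levels spanned more than 2 orders of magnitude. Mean FPKM was at least 100 in 4 members, 10 to 100 in 17, 1 to 10 in 27 and 0.5 to 1 in 17. Of the 65, 46 reached 0.5 FPKM in each of the 6 libraries, and Rpl15-ps2 reached it in only 1. Members just inside the limit were Rps12-ps26 and Rpl13-ps1 at 0.531 and 0.523 FPKM, and those just outside were Rpl10-ps6, Rpl3-ps2 and Rpl7a-ps3 at 0.480, 0.468 and 0.443 FPKM.

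Copies of Rpl17, which encodes a large subunit protein near the peptide exit tunnel, were the most abundant. Rpl17-ps10 (chromosome 7, 72648757 to 72649311, minus strand, inside no other gene) measured 273, 281 and 195 FPKM in KO libraries, against 261, 200 and 171 FPKM in WT libraries. Rpl17-ps3 (chromosome 12, 67510756 to 67511311, plus strand) measured 175, 125 and 128 FPKM in KO libraries, against 148, 176 and 84.0 FPKM in WT libraries. The groups overlapped in both copies, and WT replicate 3 was lowest in each. The functional Rpl17 gene measured 148, 58.5 and 177 FPKM in KO libraries, against 68.8, 149 and 48.9 FPKM in WT libraries. These parent values fell into a high set, KO replicates 1 and 3 with WT replicate 2, and a low set, KO replicate 2 with WT replicates 1 and 3, so each genotype had libraries in each. In reads, Rpl17-ps10 held 1.32, 3.44 and 0.787 times as many as Rpl17 in KO libraries and 2.72, 0.960 and 2.51 times as many in WT libraries. The other Rpl17 copies, Rpl17-ps5, Rpl17-ps9 and Rpl17-ps8, averaged 8.32, 0.976 and 0.897 FPKM.

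Rpl21-ps15 (chromosome X, 151215167 to 151215649, minus strand, inside Wnk3 on the opposite strand) is a copy of a large subunit gene. It measured 145, 109 and 111 FPKM in KO libraries, against 122, 156 and 137 FPKM in WT libraries. The groups overlapped, and the log2 difference (log2 of FPKM + 0.5, KO minus WT, as throughout) was -0.18 ± 0.14 (SE; limma adjusted p = 0.564). It was -0.32 without KO replicate 1, -0.11 without KO replicate 2 and -0.10 without WT replicate 2. Its parent Rpl21 measured 25.4, 14.3 and 32.4 FPKM in KO libraries, against 10.1, 11.9 and 10.9 FPKM in WT libraries, a log2 difference of 1.02 ± 0.27 (SE; limma adjusted p = 0.220). All KO libraries were above all WT libraries in the parent, which did not pass the threshold of 0.05. The reads of Rpl21-ps15 over those of Rpl21 were 0.812, 1.08 and 0.488 in KO libraries, against 1.71, 1.85 and 1.78 in WT libraries. This ratio did not overlap between the groups, as was already so for the parent alone and not for the copy. How many other ratios of copy to parent do so was not counted. The table gives Rpl21 a length of 3400 bases and Rpl21-ps15 483 bases, so each read counts for less FPKM in the parent than in the copy.

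Rps10-ps2 (chromosome 16, 20822145 to 20822640, minus strand) copies a small subunit gene and had the smallest range of all members. It measured 138, 111 and 113 FPKM in KO libraries, against 128, 137 and 132 FPKM in WT libraries, a range of 0.32 on the log2 scale. Its parent Rps10 measured 1.24, 1.29 and 1.12 FPKM in KO libraries, against 1.48, 1.11 and 1.75 FPKM in WT libraries, which was 46 to 88 reads per library. The copy held 16.1 to 26.6 times the reads of its parent in each library. A second copy, Rps10-ps1, averaged 7.59 FPKM and was also above the parent on this scale, which divides by 495 bases for the copy and 2311 for the parent. In reads it held 1.52, 1.15 and 2.43 times those of Rps10 in KO libraries, against 0.651, 1.78 and 0.409 times in WT libraries, so it was below the parent in WT replicates 1 and 3. In total 5 members were above their parent in mean FPKM, namely Rpl17-ps10, Rpl17-ps3, Rpl21-ps15, Rps10-ps2 and Rps10-ps1. Of the rest, 22 stood at 10 to 100% of the parent level, 25 at 1 to 10% and 13 under 1%. No source used here says how reads that match a parent and a copy equally were assigned, so the split between parent and copy is uncertain for every member.

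As a share of all reads on members and functional ribosomal protein genes, the 65 pseudogenes took 3.89, 4.20 and 3.52% in KO libraries, against 3.99, 3.83 and 3.41% in WT libraries. The share averaged 3.87 ± 0.343% in KO libraries and 3.74 ± 0.302% in WT libraries (SD, n = 3 each), and the groups overlapped. The 10 members with the highest mean FPKM held 70.8 to 76.3% of the member reads in each library.

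The comparison of KO with WT called 0 of the 65 members at a limma adjusted p under 0.05, where 2 of the 16155 genes tested were called (0.0124%). The lowest adjusted p of a member was 0.199. The voom test on recovered reads likewise called 0 members, with a lowest adjusted p of 0.134, and 0 genes in all (0%). At an unadjusted limma p under 0.05 there were 13 members higher and 4 lower in KO, that is 20% and 6.15% of the set. Over all tested genes these shares were 8.36% and 6.85%. Leaving out 1 library gave 8 to 17 higher and 1 to 4 lower: 8 and 3 without WT replicate 3, 17 and 2 without KO replicate 2, 10 and 2 without KO replicate 3 or WT replicate 1, and 16 and 1 without WT replicate 2. The replicate block gave 13 and 1. The shares of 8.36% and 6.85% belong to the full fit. Such shares over all tested genes were not computed for these alternatives. A move of the members can therefore not be told from a move of all genes here. The log2 difference was positive in 45 members and negative in 20, with a median of 0.25, against 0.01 over all tested genes, 0.10 over 82 functional ribosomal protein genes and 0.08 over 623 other processed pseudogenes. The last set was told apart by name alone, so it may hold ribosomal protein copies under other names. The counts of members carry the choice of members with them: 10 members reached a mean of 0.5 FPKM in KO and not in WT, and 0 did so the other way. The median log2 difference also depended on this choice. It was 0.16 over the 55 members at 0.5 FPKM or more in each group and 0.08 over the 159 pseudogenes of the family with any read. It was 0.13 without WT replicate 3.

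**Figure D1:**
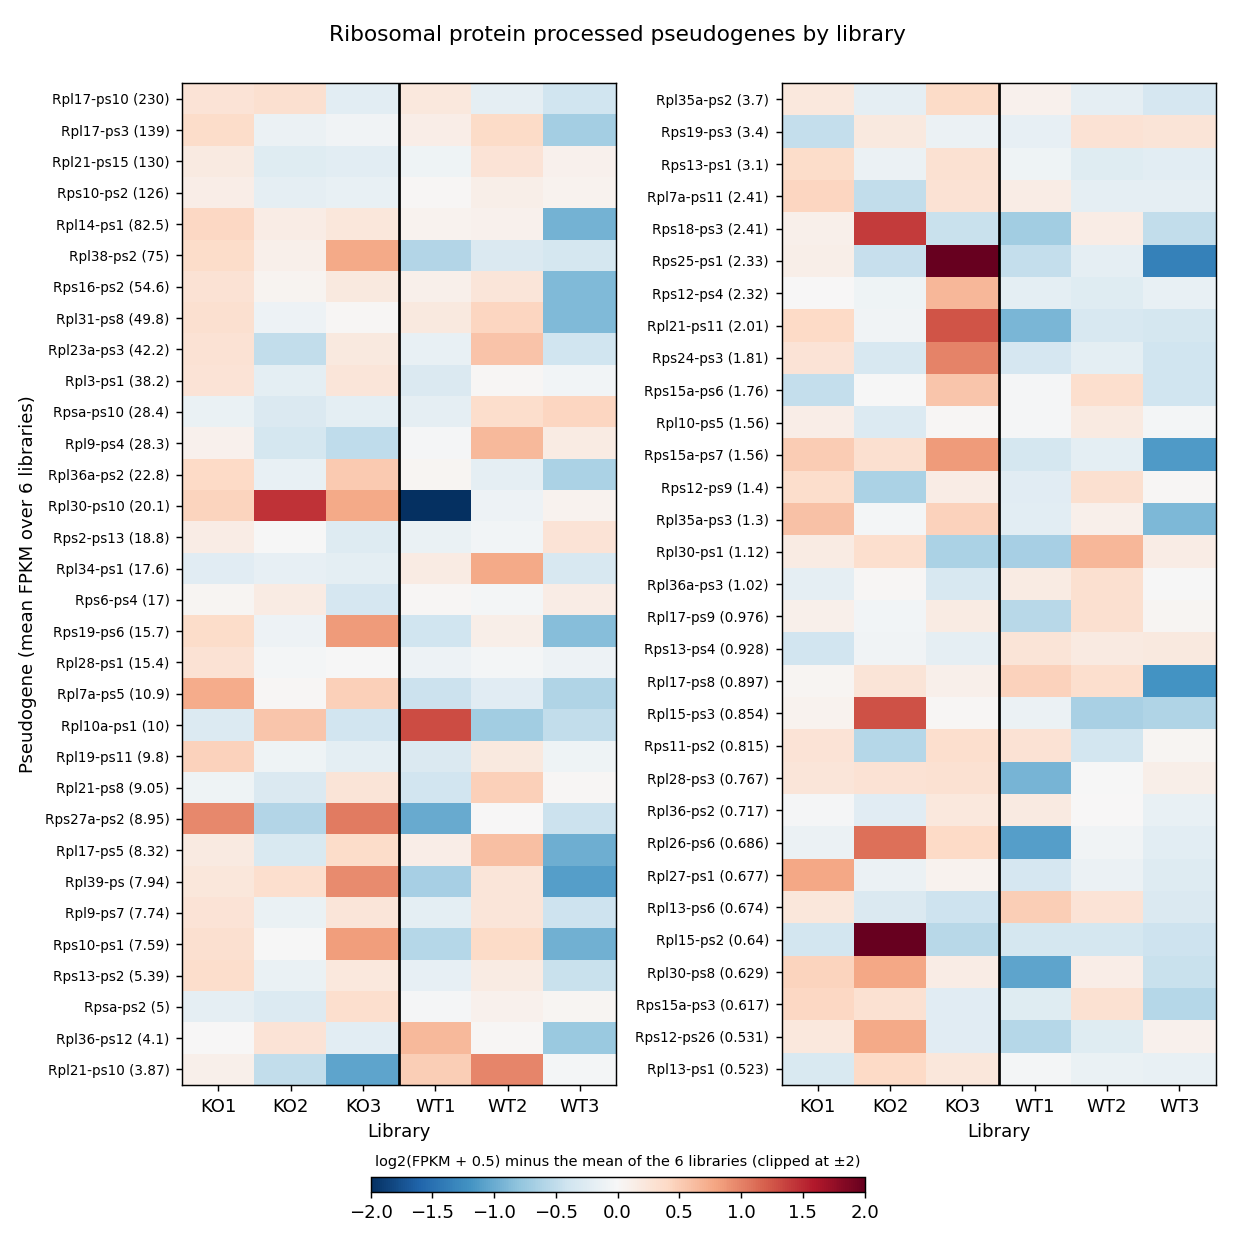
Level of 63 of the 65 pseudogenes (rows, ordered by mean FPKM, given in parentheses) in each library (columns, KO left of the black line and WT right of it), as log2(FPKM + 0.5) minus the mean of the 6 libraries, clipped at 2 in either direction. Single red or blue cells mark members in which 1 library departs from the rest, and WT3 is the lowest library in 23 of the 63 rows.

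The map of levels by library shows that few rows split cleanly at the line between KO and WT. KO values were all above WT values in 12 members (18.5%; 11.8% of all tested genes) and all below in 1 member (1.54%; 10.8% of all tested genes). Among these 13 members, 6 averaged under 10 reads per library, and 4 of the 12 members higher in KO were among the 10 that reached 0.5 FPKM in KO alone. Leaving out 1 library can only keep or raise this count, since overlap is less likely in comparisons of 2 against 3 libraries. It was 21, 27 and 16 without KO replicates 1, 2 and 3, and 19, 26 and 19 without WT replicates 1, 2 and 3. Over all tested genes, 15.1 to 18.8% were then higher in KO without overlap and 13.9 to 17.5% lower.

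Rpl38-ps2 had the smallest p-value. It copies Rpl38, which encodes a large subunit protein known in mice for its part in translating Hox mRNAs. The copy (chromosome 6, 140746960 to 140747172, minus strand, inside Gm11077 on the opposite strand) measured 91.9, 76.5 and 121 FPKM in KO libraries, against 47.1, 58.0 and 55.5 FPKM in WT libraries. It averaged 96.4 ± 22.5 FPKM in KO and 53.5 ± 5.71 FPKM in WT (SD, n = 3 each), a log2 difference of 0.82 ± 0.17 (SE; limma adjusted p = 0.199), with all KO libraries above all WT libraries. The parent Rpl38 measured 315, 242 and 327 FPKM in KO libraries, against 166, 220 and 132 FPKM in WT libraries, a log2 difference of 0.79 ± 0.20 (SE; limma adjusted p = 0.210). Copy and parent thus had nearly the same difference, and their log2 ratio differed by 0.03 between KO and WT.

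Rpl7a-ps5 (chromosome 17, 57838430 to 57839221, minus strand) copies a large subunit gene and lies inside Cntnap5c on the opposite strand. It measured 17.7, 10.5 and 14.6 FPKM in KO libraries, against 7.53, 8.71 and 6.62 FPKM in WT libraries, a log2 difference of 0.84 ± 0.19 (SE; limma adjusted p = 0.2005). The groups did not overlap. The parent Rpl7a differed by 0.43 and the enclosing Cntnap5c by -0.54, neither past the threshold with limma (adjusted p = 0.286 and 0.207).

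Rps15a-ps7 measured 2.17, 1.83 and 2.88 FPKM in KO libraries, against 0.968, 1.13 and 0.352 FPKM in WT libraries, a log2 difference of 1.12 ± 0.27 (SE; limma adjusted p = 0.205). Its parent Rps15a, a small subunit gene, differed by -0.09. The groups did not overlap in the copy, and its reads numbered 16, 13 and 20 in KO libraries, against 7, 8 and 3 in WT libraries.

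Rpl21-ps11 measured 2.44, 1.61 and 4.82 FPKM in KO libraries, against 0.678, 1.27 and 1.25 FPKM in WT libraries, a log2 difference of 1.06 ± 0.35 (SE; limma adjusted p = 0.262), and 0.69 without KO replicate 3. Its difference was near the 1.02 of the parent Rpl21, and the groups did not overlap. A second copy, Rpl21-ps10, measured 3.77, 2.30 and 1.41 FPKM in KO libraries, against 5.08, 7.30 and 3.35 FPKM in WT libraries, a log2 difference of -0.96 ± 0.35 (SE; limma adjusted p = 0.287). KO replicate 1 overlapped WT replicate 3 there. The 4 Rpl21 copies in the set therefore ran from -0.96 to 1.06, with the abundant Rpl21-ps15 at -0.18 and Rpl21-ps8, which lies inside Mbp on the opposite strand, at -0.08. The 5 Rpl17 copies, by contrast, lay between 0.12 and 0.26.

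Rps13-ps4 was the only member in which every KO library lay below every WT library. It rested on 5, 7 and 6 reads in KO libraries, against 10, 9 and 11 reads in WT libraries, a log2 difference of -0.42 ± 0.14 (SE; limma adjusted p = 0.267). It lies 6.72 Mb from Cntnap4 on chromosome 8, inside Taf1c on the same strand. Others with small p-values in this direction overlapped between groups. Rpsa-ps10 measured 25.4, 22.8 and 24.2 FPKM in KO libraries, against 24.6, 35.5 and 37.6 FPKM in WT libraries. Rpl9-ps4 measured 28.9, 21.3 and 19.0 FPKM in KO libraries, against 26.9, 42.9 and 30.7 FPKM in WT libraries. In each of these WT replicate 1 lay within the KO values. Rpl36a-ps3 averaged 0.855 ± 0.166 FPKM in KO and 1.19 ± 0.191 FPKM in WT (SD, n = 3 each), at 4 to 8 reads per library.

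**Figure D2:**
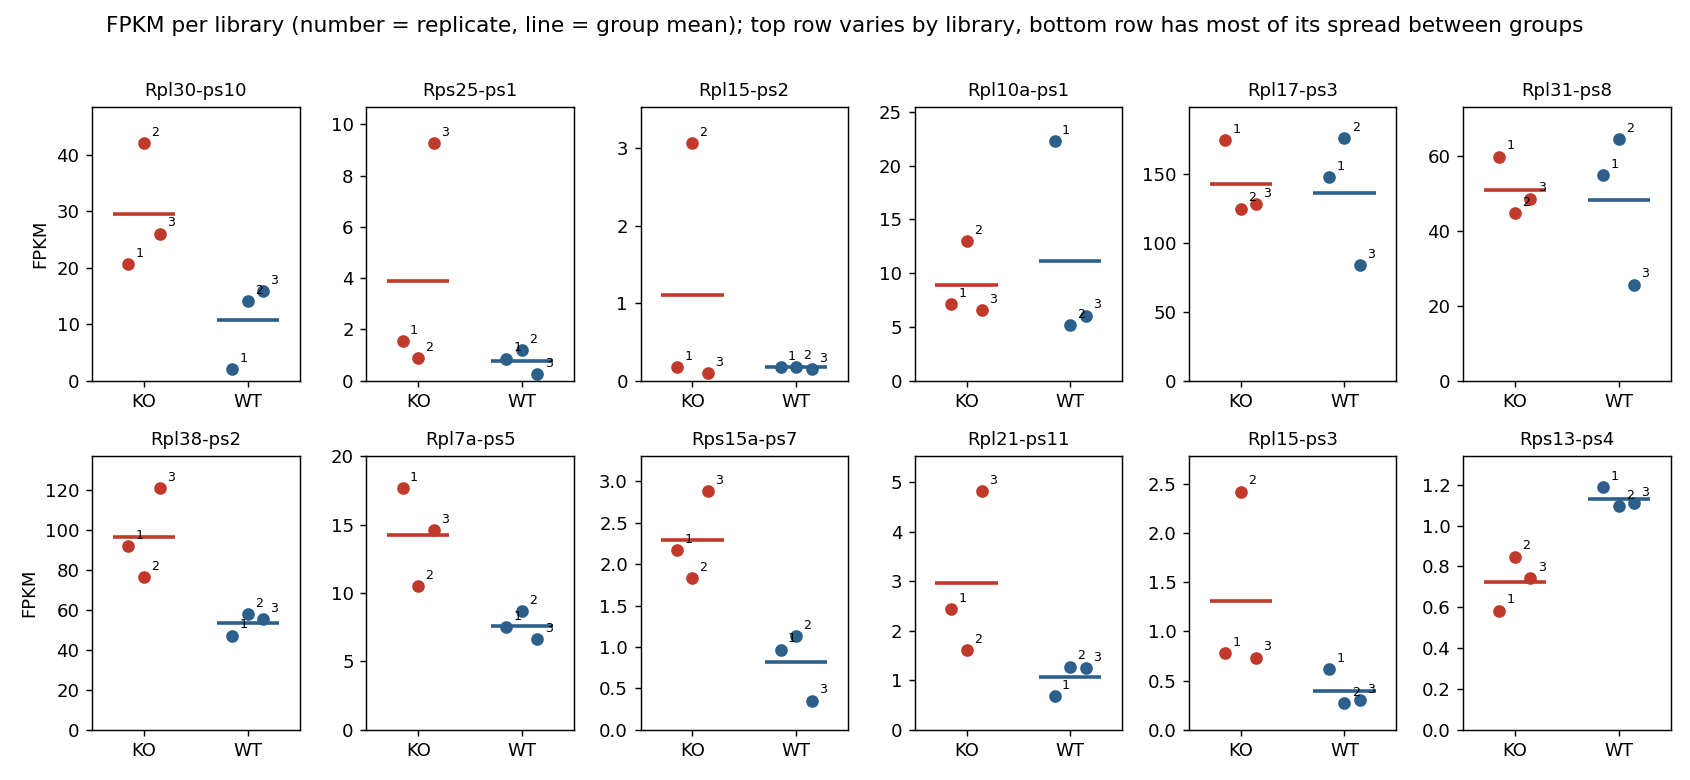
FPKM of 12 pseudogenes in each library (points, numbered by replicate) with the group mean (line), KO left of WT, each panel with its own linear axis from 0. The rows are split by spread on the logarithmic scale of the tests. On that scale most of the spread lies within groups in the top row, with 1 library often far from the rest. In the bottom row most lies between groups on that scale, and in these 6 panels KO and WT do not overlap. Of these, Rpl15-ps3 reached a mean of 0.5 FPKM in KO and not in WT. The split was not computed for the linear FPKM drawn here, where it can differ.

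Among the members with wide ranges, more had their spread within the groups than between them. A member was counted as varying by library when its log2 values ranged over at least 1, a doubling on this scale, and under 50% of its sum of squares lay between the groups; without a group effect 0.2 of the sum of squares is the expected share. By this measure 27 of 65 members varied by library (41.5%, against 8.68% of all tested genes). The share was 34.99% in 623 other processed pseudogenes, set apart by name alone, and 12.2% in 82 functional ribosomal protein genes. Of those with a range of at least 1, 27 of 37 members and 1403 of 1946 tested genes varied by library. So did 218 of 321 other processed pseudogenes and 10 of 14 functional genes. Spread within the groups was thus not particular to members with wide ranges. The difference from these sets was not tested, and the sets differ in reads: the median member averaged 29.7 reads per library, the median other processed pseudogene 19.8 and the median functional gene 3694. The count was 17 without KO replicate 2 and 16 without WT replicate 3. Another 10 members had a range of at least 1 with 50% or more between the groups, and 28 had a range under 1.

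**Figure D3:**
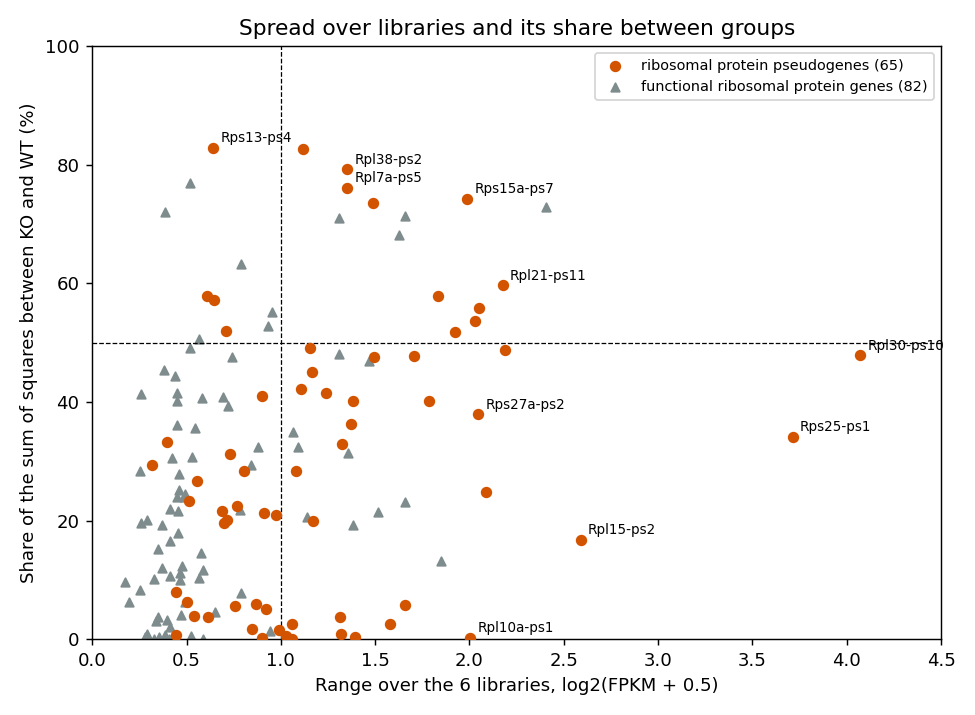
Range over the 6 libraries on log2(FPKM + 0.5) (horizontal) against the share of the sum of squares that lies between KO and WT (vertical, %), for 65 pseudogenes (circles) and 82 functional ribosomal protein genes (triangles); dashed lines mark a range of 1 and a share of 50%. The 27 members to the right of the first line and below the second vary by library; the median range is 1.11 for members and 0.48 for functional genes.

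The plot of range against between-group share places Rpl30-ps10, Rps25-ps1 and Rpl15-ps2 at the far right, with ranges of 4.07, 3.71 and 2.59. Rpl30-ps10 (chromosome X, 71803688 to 71804034, plus strand) measured 20.7, 42.0 and 26.0 FPKM in KO libraries, against 2.03, 14.1 and 15.9 FPKM in WT libraries. All KO libraries were above all WT libraries, but WT replicate 1 alone lay 2.88 below the median of the 6 on the log2 scale, at 13 reads where the others had 88 to 264. Its 95% Poisson interval, 1.08 to 3.47 FPKM, did not reach the next library, at 11.3 to 17.4 FPKM in WT replicate 2. The log2 difference was 1.77 ± 0.71 (SE; limma adjusted p = 0.314), and 0.90 without WT replicate 1. The parent Rpl30, a large subunit gene, stood at 70.2, 46.6 and 55.2 FPKM in KO libraries, against 56.1, 60.4 and 52.0 FPKM in WT libraries. It therefore did not share the low value of WT replicate 1. Rpl30-ps8, a copy on chromosome 12, had 0 reads in the same library, which allows up to 3 reads, against 2 to 8 in the others.

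Rps25-ps1 (chromosome 6, 145266400 to 145266777, plus strand), the only processed pseudogene named for Rps25, measured 1.55, 0.877 and 9.26 FPKM in KO libraries, against 0.860, 1.18 and 0.243 FPKM in WT libraries. KO replicate 3 held 62 reads and the other libraries 2 to 11. Its Poisson interval of 7.10 to 11.9 FPKM lay above that of every other library. The parent Rps25, a small subunit gene, ranged over 0.46 on the log2 scale.

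Rpl15-ps2 (chromosome 9, 72060937 to 72061549, plus strand, inside Tcf12 on the opposite strand) measured 0.173, 3.06 and 0.0921 FPKM in KO libraries, against 0.177, 0.181 and 0.150 FPKM in WT libraries. This was 34 reads in KO replicate 2 and 1 or 2 reads elsewhere, and that library alone brought it into the set. Without KO replicate 2 its log2 difference was -0.08, against 0.75 with it. Rpl15-ps3, a second copy of the same parent, was also highest in KO replicate 2, at 27 reads against 3 to 9 in the others. It averaged 1.31 FPKM in KO and 0.396 FPKM in WT, so it met the limit of 0.5 FPKM through KO alone. Rpl15 itself, a large subunit gene, ranged over 0.26, the smallest range of the 38 parents.

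KO replicate 2 was the high library in several further members. Rps18-ps3 measured 2.22, 6.18 and 1.36 FPKM in KO libraries, against 1.07, 2.32 and 1.31 FPKM in WT libraries. It lies 5.31 Mb from Cntnap4. Rpl26-ps6 measured 0.490, 1.78 and 0.910 FPKM in KO libraries, against 0, 0.512 and 0.424 FPKM in WT libraries, with 0 reads in WT replicate 1 allowing up to 3. Both rested on few reads, at most 51 and 14 per library. This was the library that stood apart in regional markers, and the part of that difference in these values was not tested.

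WT replicate 1 was the high library in Rpl10a-ps1 (chromosome 1, 64993951 to 64994604, minus strand), a copy of a large subunit gene. It measured 7.15, 13.01 and 6.56 FPKM in KO libraries, against 22.3, 5.19 and 6.05 FPKM in WT libraries. The share of its sum of squares between groups was 0.268%, and its log2 difference of -0.07 became 0.56 without WT replicate 1. Rps27a-ps2, a copy of a gene that encodes a small subunit protein fused to ubiquitin, measured 15.4, 4.97 and 16.4 FPKM in KO libraries, against 3.60, 7.74 and 5.61 FPKM in WT libraries. KO replicates 1 and 3 were high and KO replicate 2 lay among the WT values. The parent Rps27a measured 50.3, 44.8 and 55.9 FPKM in KO libraries, against 104, 115 and 36.0 FPKM in WT libraries, so WT replicates 1 and 2 were high in the parent and not in the copy.

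The most frequent departure was a low value in WT replicate 3. Among the 27 members that varied by library, the value farthest from the median of the 6 was that of WT replicate 3 in 11 members, all low. It was that of KO replicate 2 in 4 members and KO replicate 3 in 4, all high. WT replicate 1 accounted for 4, WT replicate 2 for 3 and KO replicate 1 for 1. Over all 65 members WT replicate 3 was the lowest library in 24, with a median deviation of -0.33 from the mean of the 6 libraries, against -0.25 in their 38 parents, -0.11 in functional ribosomal protein genes and -0.0001 in all tested genes. It was likewise the lowest library in 21 of the 38 parents and in 36 of 82 functional ribosomal protein genes, so low values in WT replicate 3 were found in copies and functional genes alike. WT replicate 3 was the lowest in 133 of 623 other processed pseudogenes, with a median deviation of -0.08, and in 2777 of 16155 tested genes. It did not stand alone in the functional genes, where it was also the highest library in 9. There KO replicate 2 was the lowest in 31, with a median deviation of -0.15. In the 65 members KO replicates 1 to 3 deviated by 0.23, -0.07 and 0.19, and WT replicates 1 and 2 by -0.16 and 0.09.

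Several abundant members followed this pattern. Rpl14-ps1 (chromosome 7, 45324965 to 45325617, plus strand, inside Trpm4 on the opposite strand) measured 106, 87.6 and 93.0 FPKM in KO libraries, against 83.2, 84.0 and 40.8 FPKM in WT libraries. All KO values were above all WT values, though WT replicates 1 and 2 lay close beneath KO replicate 2. Its log2 difference was 0.53 ± 0.28 (SE; limma adjusted p = 0.417), and 0.19 without WT replicate 3. Rpl14 in WT replicate 3 was 120 FPKM, near its other WT values of 131 and 137 FPKM. Rps16-ps2 measured 64.9, 54.7 and 60.4 FPKM in KO libraries, against 56.9, 62.3 and 28.6 FPKM in WT libraries. Its parent Rps16 was also lowest in WT replicate 3, at 85.7 FPKM where the other libraries had 126 to 158 FPKM, and the log2 ratio of copy to parent ranged over only 0.43. Rpl31-ps8, the only member among 24 processed pseudogenes named for Rpl31, measured 59.9, 44.7 and 48.7 FPKM in KO libraries, against 55.1, 64.6 and 25.7 FPKM in WT libraries. Rpl31 was likewise lowest in that library, at 83.0 FPKM where the others had 139 to 177 FPKM. Without WT replicate 3 the log2 difference of Rpl31-ps8 was -0.23, against 0.17 with it, and that of Rpl17-ps3 was -0.20, against 0.12 with it.

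**Figure D4:**
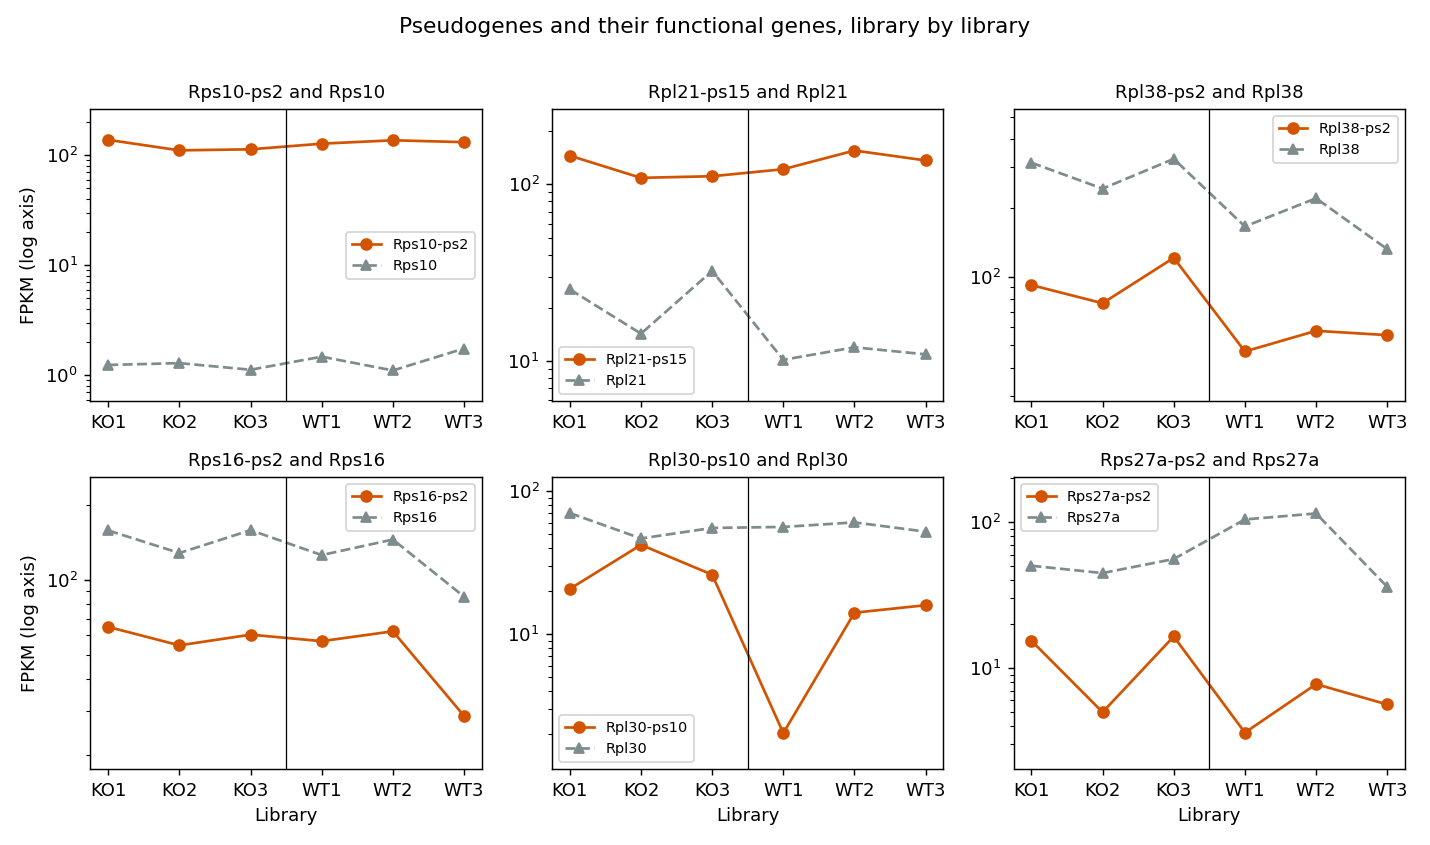
FPKM of 6 pseudogenes (solid line, circles) and their functional genes (dashed line, triangles) in each library, KO left of the vertical line and WT right of it; the vertical axis is logarithmic. Rpl38-ps2 and Rps16-ps2 move with their parents, Rpl30-ps10 and Rps27a-ps2 do not, and Rps10-ps2 and Rpl21-ps15 lie above theirs.

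The plot of copies beside their parents shows each kind of relation. A member ranged more widely than its parent in 51 of 65 cases, and the median range was 1.11 for members and 0.56 for their 38 parents. The median member averaged 29.7 reads per library and the median parent 3198, so counting error is larger in the copies. Its part in these ranges was not tested. Among the 27 members that varied by library, the parent ranged over less than 1 in 20, and the ratio of copy to parent ranged over at least 1 in 22. The sign of the log2 difference matched that of the parent in 40 of 65 members. The difference was positive in 45 of the 65 members and in 28 of the 38 parents, so many signs would match without any link. The log2 ratio of copy to parent differed between KO and WT by a median of 0.06 and was higher in KO in 38 of 65.

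The spread of reads within groups was also set beside counting error. The index of dispersion of recovered reads within groups, which is 1 when counting error is the only source, had a median of 17.5 in the 21 members at 10 FPKM or more, 2.85 in the 27 members at 1 to 10 FPKM and 1.12 in the 17 members below 1 FPKM. At the same relative spread this index rises with the number of reads, so it does not rank the classes by relative spread. Its median was 3.80 over the 65 members and 4.11 over all tested genes. It was 2.13 over other processed pseudogenes and 70.8 over functional ribosomal protein genes. Members varied by library in 11 of 21, 10 of 27 and 6 of 17 of these FPKM classes. Of the 27, 7 averaged under 10 reads per library and 4 had an index under 2. Not all abundant members ranged widely, though a range under 1 does not mean a low index. Rpl17-ps10 had an index of 101, and the median range over all tested genes was 0.43. Of the 21 at 10 FPKM or more, 8 ranged over less than 1, from 0.32 in Rps10-ps2 to 0.72 in Rpl17-ps10. Rpl3-ps1 was among these, at 45.7, 32.96 and 44.7 FPKM in KO libraries, against 30.9, 38.2 and 36.5 FPKM in WT libraries. Rpl23a-ps3, at 49.99, 28.8 and 46.4 FPKM in KO libraries, against 36.5, 60.6 and 30.7 FPKM in WT libraries, ranged over 1.06 with 0.00803% of its sum of squares between the groups.

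The members that varied by library numbered 18 of 40 large subunit copies and 9 of 25 small subunit copies. Among members inside another gene 13 of 30 varied by library, and among those inside no gene 14 of 35. These differences were not tested. Rpl39-ps, the shortest member at 151 bases, measured 8.45, 9.15 and 14.2 FPKM in KO libraries, against 4.31, 8.47 and 3.05 FPKM in WT libraries. WT replicate 2 overlapped the KO values, and the log2 difference was 1.02 ± 0.35 (SE; limma adjusted p = 0.276), beside 0.67 in its parent Rpl39.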

How the data were processed

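Per the labels' protocols, total RNA from an RNeasy column kit went into SMARTer mRNA libraries. The genome build was GRCm38 (mm10), per the submitters' processing notes. Not given in the sources used here are the aligner, the counting program, the use of strand and the treatment of reads matching several places. The authors deposited 1 table of FPKM values with gene lengths, and every sample column was matched to a sample by name. FPKM multiplied by length gave whole multiples of 1 step per library for 100% of nonzero values (within 0.01 of a whole read), and 1 read in a gene of 1 kb was worth 0.0460 to 0.0564 FPKM. These recovered reads gave the Poisson intervals (95%) and the limit of 3 reads for a count of 0; both cover counting error only.

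Genes were tested by limma-trend with robust moderation (limma 3.58.1, R 4.3.3) on log2(FPKM + 0.5), two-sided. The test ran over the 16155 genes that averaged 0.5 FPKM or more, with Benjamini-Hochberg adjustment over all of them and a threshold of 0.05. This scale understates the change of low genes. Voom with TMM scaling on recovered reads was an alternative; others were pseudocounts of 0.1 and 1, equal FPKM sums, median-ratio factors, quantile normalization, no trend, a replicate block, a filter at 5 FPKM, no filter and leaving out each library. The parent is the gene named before the suffix. Named members were the 10 highest in mean FPKM, the 10 with the largest range and the 5 with the smallest p in each direction; the others named were chosen after their values were seen. The members, lists and tests were chosen with earlier results of these data known. Results for 2 members are not reported by name here.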

Additional observations from a re-analysis of the deposited data

How the results depend on the processing

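No member was called under any of the 16 alternatives run. The number of genes called in all, 2, was 0 with a pseudocount of 0.1, with voom, with a filter at 5 FPKM and with no filter, 1 with quantile normalization and 5 with equal FPKM sums; it ran from 0 to 9 when 1 library was left out (9 without KO replicate 1). A filter at 5 FPKM, which left 30 members, gave 14 that varied by library in place of 27. It left 4 whose groups did not overlap in place of 13, with 16.0% of all genes then higher and 10.7% lower without overlap. Leaving out 1 library gave 16 to 24 that varied by library (16 without WT replicate 3, 17 without KO replicate 2) and 16 to 27 without overlap. Over all tested genes 15.1 to 18.8% were then higher and 13.9 to 17.5% lower without overlap. Leaving out a library can only keep or raise the count without overlap, and can only keep or narrow a range. The share of all genes that varied by library was not computed for these alternatives. The median log2 difference, 0.25, ran from 0.13 to 0.34 when 1 library was left out; equal FPKM sums gave 0.19, with -0.04 over all genes. Pseudocounts of 0.1 and 1 gave 36 and 23 that varied by library. Median-ratio factors left the values as they were, since the deposited FPKM had equal factors. A member count and median over members at 0.5 FPKM in each group, or over all with any read, were added after seeing the data.

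Same-numbered libraries did not deviate together (correlations -0.09, -0.14 and -0.07). These values gave no sign that the numbers pair samples, but they cannot exclude it, and the labels do not state it. With a replicate block 0 genes and 0 members were called, and the lowest limma adjusted p of a member was 0.386.

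Of 53 named members and parents, none crossed the threshold, and signs turned in 21 of 836 refits. Rpl23a-ps3 (-0.01) was 0.0012 with voom, Rpl10a (0.04) was -0.016 with equal sums and -0.059 with quantile normalization, Rpl3 (0.11) was -0.040 with quantile normalization, and Rpl30 (0.01) was -0.045 and -0.082 under these scalings. Leaving out 1 library gave -0.20 to 0.34 for Rpl17-ps3, -0.23 to 0.43 for Rpl31-ps8, -0.21 to 0.28 for Rpl23a-ps3, -0.44 to 0.56 for Rpl10a-ps1 and -0.084 to 1.21 for Rpl15-ps2. Among parents it gave -0.068 to 0.14 for Rpl10a, -0.14 to 0.15 for Rpl30, -0.041 to 0.24 for Rps13 and -0.15 to 0.0060 for Rps15a. The causes were not tested.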

Other observations

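The table gives 15 further genes with ribosomal protein pseudogene names another biotype, 8 protein-coding and 7 transcribed processed pseudogenes, so the member rule left them out. Rps12-ps3, classed as protein-coding, was the most abundant of these, at 98.4, 73.6 and 73.0 FPKM in KO libraries, against 117, 136 and 140 FPKM in WT libraries. Every KO library was below every WT library, with a log2 difference of -0.69 and a limma adjusted p of 0.187. Rps2-ps10, a transcribed processed pseudogene, measured 4.46, 4.52 and 2.40 FPKM in KO libraries, against 7.58, 6.51 and 7.15 FPKM in WT libraries, again without overlap, with a log2 difference of -0.86 and a limma adjusted p of 0.207. Rpl9-ps6 measured 59.9, 43.7 and 45.8 FPKM in KO libraries, against 54.5, 62.4 and 40.2 FPKM in WT libraries, and the groups overlapped. Rps26-ps1 measured 5.80, 2.21 and 0.880 FPKM in KO libraries, against 1.69, 1.98 and 2.46 FPKM in WT libraries, with KO replicate 1 high and KO replicate 3 low. These 4 were chosen after their values were seen.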
